A study of Mus musculus with 8 samples.

Results

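The genes described here are 10 chemokines that fibroblasts are known to make: Ccl2, Ccl7, Ccl8, Ccl11, Cxcl1, Cxcl5, Cxcl12, Cxcl14, Cxcl16 and Cx3cl1. They were picked by gene symbol from the 34399 symbols in the count tables of the series, and all 10 were found. RNA was sequenced from GFP+ cells sorted from the ventricles of mice that had transverse aortic constriction (TAC), a banding of the aorta that overloads the heart with pressure. The mice were 8 to 10 weeks old at surgery, and their hearts were taken 4 weeks later.

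There were 4 groups of 2 libraries. The Smad2/3 DKO libraries (HK15 and HK16) came from mice with floxed Smad2 and Smad3 alleles (Smad2 flox/flox, Smad3 flox/flox) and MerCreMer, a tamoxifen-dependent Cre, in the Postn locus. Their Postn-Cre control libraries (HK3 and HK4) came from mice with the same Cre, for which the labels list no floxed allele. The Tgfbr1/2 DKO libraries (HK2 and HK4) came from mice with floxed alleles of both TGF-β receptor genes (Tgfbreceptor1flox/flox and Tgfbreceptor2flox/flox in the labels) and MerCreMer in the Tcf21 locus. Their Tcf21-Cre control libraries (HK6 and HK7) had that Cre alone. Every group, controls included, also carried the R26 eGFP reporter, which Cre switches on, and underwent TAC. All groups also received tamoxifen at 100 mg/kg on 2 days, then tamoxifen chow at 40 mg/kg. Postn is turned on in activated fibroblasts and Tcf21 marks resident cardiac fibroblasts, so the sorted cells depend on the driver. The first pair of groups was sequenced in one run and the other pair in another run, so run, driver and deleted genes cannot be told apart between the pairs. The labels do not say whether each library is 1 animal or a pool, so the p-values cover the spread among libraries, which may be technical.

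Chemokines are small secreted proteins that draw leukocytes along a gradient through receptors on the leukocyte surface. They are named by the spacing of their first cysteines: adjacent in CC chemokines, 1 residue apart in CXC chemokines and 3 apart in CX3CL1. CCL2 and CCL7 call in monocytes through CCR2, CCL11 calls in eosinophils through CCR3, and mouse CCL8 acts through CCR8. CXCL1 and CXCL5 call in neutrophils through CXCR2. CXCL12 holds CXCR4-bearing cells in tissue, and CXCL14 is made by resting tissue. CXCL16 and CX3CL1 are made as membrane proteins that proteases can cut free. TGF-β receptors act largely by phosphorylating SMAD2 and SMAD3, and TGF-β is known both for driving matrix genes in fibroblasts and for restraining inflammatory genes.

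The coding stretch around the signature cysteines is shown for the 5 genes past the test in either knockout comparison, and for Cx3cl1, which has the widest spacing. Capitals mark the codons of the signature cysteines. The sequences run 5′ to 3′ on the gene's own strand, from GENCODE vM21 transcripts (GRCm38).
Ccl2, chr11:82036494-82036523 (+): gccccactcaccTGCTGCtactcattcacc
Ccl7, chr11:82046526-82046555 (+): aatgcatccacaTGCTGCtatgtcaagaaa
Cxcl12, chr6:117171496-117171528 (+): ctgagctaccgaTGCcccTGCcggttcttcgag
Cxcl14, chr13:56295903-56296113 (-), joined across an intron: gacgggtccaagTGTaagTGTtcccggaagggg
Cxcl16, chr11:70459115-70459147 (-): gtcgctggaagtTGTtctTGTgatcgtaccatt
Cx3cl1, chr8:94778039-94778077 (+): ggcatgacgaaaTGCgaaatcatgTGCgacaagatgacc
All but the Cxcl14 stretch lie in coding exon 2, and the Cxcl14 stretch joins coding exons 1 and 2. The coding sequences of Ccl7 and Ccl11 were 66.3% identical, those of Ccl7 and Ccl8 63.7%, and those of Ccl8 and Ccl11 63.3%. Of the deposited counts above 0, 12.5% were whole numbers, so most hold fractions of reads. How reads were shared between such similar genes is not given in the labels or files, so their counts are uncertain to that extent.

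The libraries held 21477646 to 32594474 counts in all, so 3 counts correspond to 0.0920 to 0.140 counts per 1000000 counts (CPM). Counts over the whole Smad2 gene were 84.5 and 78.2 CPM in Smad2/3 DKO and 95.4 and 82.3 CPM in the Postn-Cre control. Smad3 had 70.5 and 109 CPM in Smad2/3 DKO and 114 and 92.7 CPM in the Postn-Cre control. Neither gene's groups were separated, and the floxed exons are not named in the labels, so counts over whole genes do not check the deletion. Tgfbr1 had 181 and 193 CPM in Tgfbr1/2 DKO and 229 and 238 CPM in the Tcf21-Cre control, and Tgfbr2 had 471 and 406 CPM against 370 and 406 CPM. The fibroblast genes Col1a1 (422 to 4204 CPM) and Pdgfra (327 to 797 CPM) were present in every library. Of the driver genes, Postn was at 186 to 295 CPM in the Postn-driven libraries and at 1489 to 3076 CPM in the Tcf21-driven ones. Tcf21 was at 25.6 to 37.7 CPM in the Postn-driven libraries and at 111 to 163 CPM in the Tcf21-driven ones. Both RNAs were thus lower in the Postn-driven libraries, and driver and run cannot be told apart in this.

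Cxcl1 was the most abundant of the 10 chemokines in all 4 groups and Ccl2 the next, on the scale of CPM per kb of exon. Cxcl1 averaged 1776 ± 473 CPM per kb in Smad2/3 DKO and 1059 ± 19.5 in the Postn-Cre control, and 1297 ± 655 in Tgfbr1/2 DKO and 797 ± 90.8 in the Tcf21-Cre control (SD, n = 2 each). Ccl2 averaged 339 ± 87.0 CPM per kb in Smad2/3 DKO and 136 ± 13.3 in the Postn-Cre control, and 587 ± 252 in Tgfbr1/2 DKO and 129 ± 88.2 in the Tcf21-Cre control. The ranges of these 2 genes overlapped neither each other nor the next gene in any group.

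Below these, the order differed between groups. In Smad2/3 DKO it ran Ccl7, Cxcl16, Cxcl5, Ccl11, Cx3cl1, Cxcl14, Cxcl12 and Ccl8, and of these neighbours only Ccl11 and Cx3cl1 overlapped. In the Postn-Cre control it ran Cxcl5, Cxcl16, Ccl7, Cxcl12, Cx3cl1, Ccl11, Cxcl14 and Ccl8, with overlap between Cxcl16 and Ccl7, between Cxcl12 and Cx3cl1, and between Cx3cl1 and Ccl11. In Tgfbr1/2 DKO it ran Ccl7, Ccl11, Cxcl16, Cxcl12, Cxcl14, Cx3cl1, Cxcl5 and Ccl8. There Cxcl12 and Cxcl14 overlapped, as did Cx3cl1 and Cxcl5, and Cxcl5 and Ccl8. In the Tcf21-Cre control it ran Ccl7, Cxcl16, Ccl11, Cx3cl1, Cxcl12, Cxcl14, Ccl8 and Cxcl5, and every neighbour overlapped the next. Cxcl12, whose exons are the longest of the 10, thus ranked sixth in Tgfbr1/2 DKO (30.3 ± 1.60 CPM per kb) and last but for Ccl8 in Smad2/3 DKO (2.43 ± 0.362 CPM per kb). Exon length here joins all annotated exons of a gene (8176 bases for Cxcl12), so these ranks depend on it. In CPM, Cxcl12 averaged 248 in Tgfbr1/2 DKO, where Ccl7 averaged 206 and overlapped it. In Smad2/3 DKO it averaged 19.8 CPM, above Ccl11 (11.6 CPM) and Cxcl14 (10.1 CPM).

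**Figure D1:**
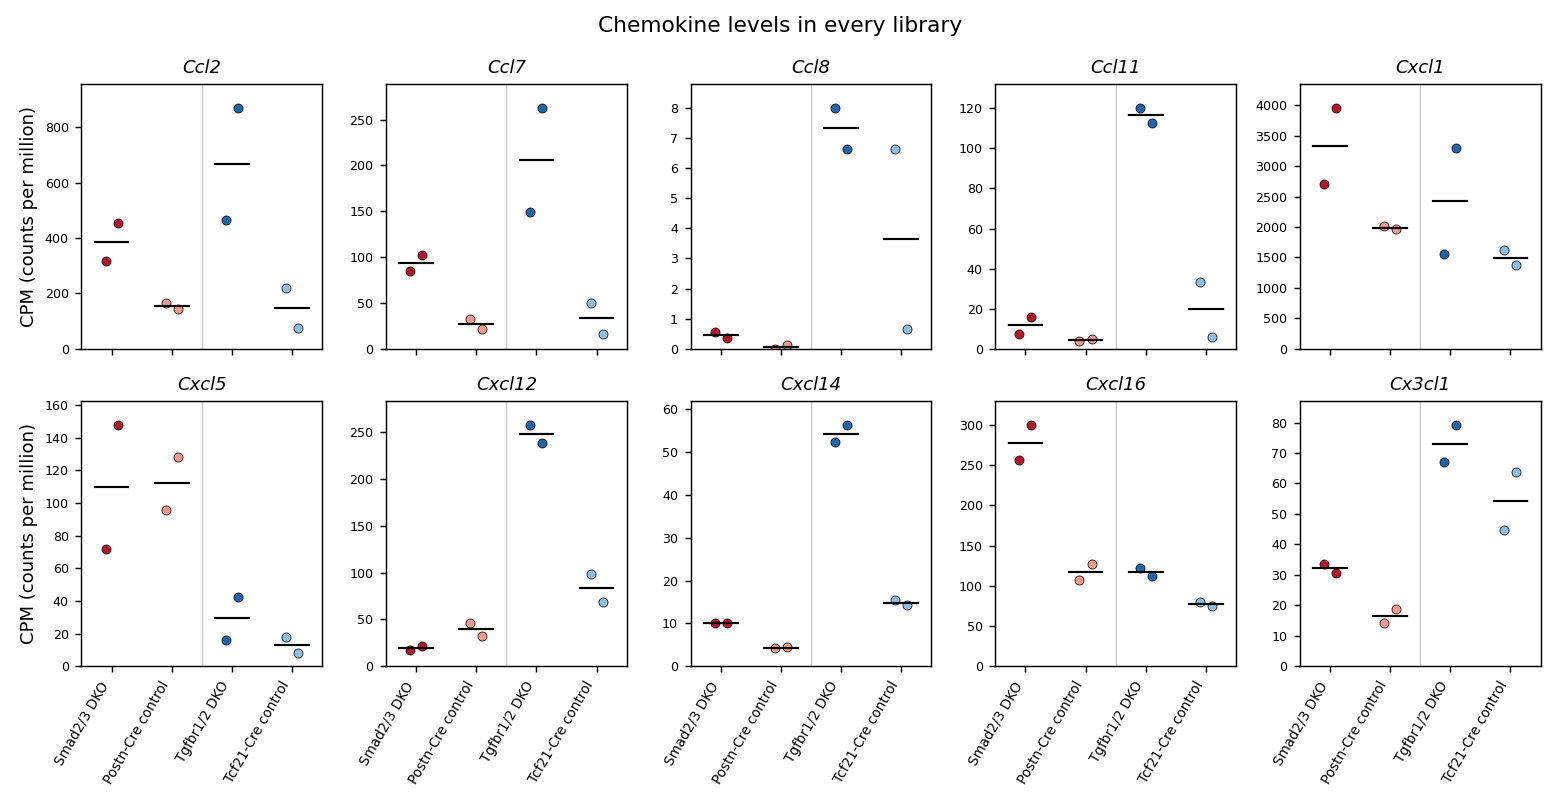
Level of each of the 10 chemokine genes in CPM (y axis, a scale of its own in each panel, starting at 0) in every library of the 4 groups (x axis); points are libraries and lines are group means of 2. Cxcl12 lies at 17.7 and 21.9 CPM in Smad2/3 DKO, against 46.7 and 32.2 CPM in its control, and at 257 and 238 CPM in Tgfbr1/2 DKO, against 98.9 and 69.1 CPM in its control.

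Of the 9 genes tested in Smad2/3 DKO over the Postn-Cre control, Ccl2, Ccl7 and Cxcl16 rose, 6 did not pass the test and none fell. Ccl8 was too scarce there to be tested. The test was edgeR's quasi-likelihood F test at an adjusted p of 0.05, with the Benjamini-Hochberg method over 15760 genes. It called 1.29% of all genes, 0.451% as higher and 0.844% as lower. With scaling to library totals in place of TMM, 45.9% of the calls were higher, against 34.8%. In Tgfbr1/2 DKO over the Tcf21-Cre control all 10 were tested: Cxcl12 and Cxcl14 rose, and 8 did not pass. The same test called 3.96% of 16658 genes there, 2.64% as higher and 1.31% as lower. The median log2 fold change of the tested chemokines was 1.15 in the first comparison and 1.49 in the other, while over all tested genes it was 0.01 and -0.01.

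Ranges can be compared without the test. In Smad2/3 DKO, 7 of the 9 tested chemokines had both libraries above both controls, and so had 25.4% of all tested genes. Cxcl12 alone had both below, as had 18.9% of all tested genes. In Tgfbr1/2 DKO, 8 of 10 had both libraries above both controls and none had both below, against 21.8% and 29.4% of all tested genes. Of the 8, Ccl8 was nearly tied, with 6.647 CPM in Tgfbr1/2 DKO HK4 and 6.646 CPM in Tcf21-Cre control HK6. Ccl2, Ccl7, Ccl11, Cxcl14, Cxcl16 and Cx3cl1 were above in both comparisons, 6 of the 9 tested in both. Over all 15017 genes tested in both the share was 5.02%. The comparisons share no library. The 10 chemokines were chosen with earlier results of these data known, so these shares and the medians above are a description and not a test.

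**Figure D2:**
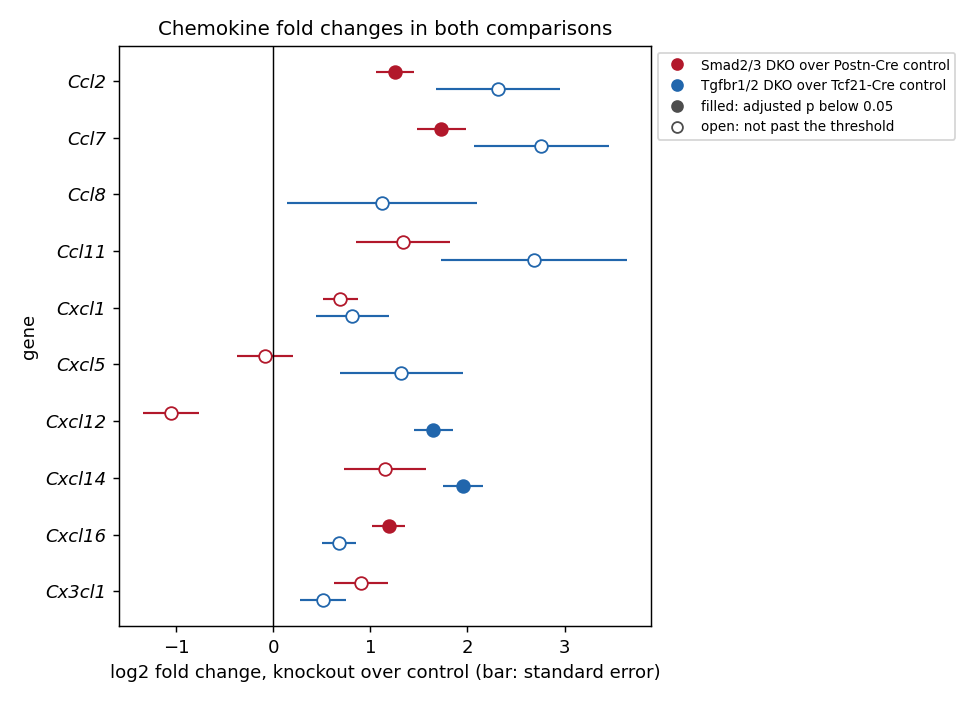
Log2 fold change of each gene (rows) over its control, with bars for the standard error (SE), in Smad2/3 DKO (red, upper) and Tgfbr1/2 DKO (blue, lower). Ccl2, Ccl7 and Cxcl16 are filled (past the threshold) in red, Cxcl12 and Cxcl14 in blue, and Cxcl12 is the gene whose values lie well to either side of 0, at -1.05 and 1.65; Ccl8 was not tested in Smad2/3 DKO.

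The monocyte chemokine Ccl2 was 2.39-fold higher in Smad2/3 DKO. It had 315 and 455 CPM in Smad2/3 DKO, against 166 and 144 CPM in the Postn-Cre control. Both knockout libraries were above both controls (log2 fold change 1.26 ± 0.20 SE, adjusted p = 0.0099 by edgeR's quasi-likelihood test). The Tgfbr1/2 DKO libraries had 465 and 870 CPM, against 218 and 75.6 CPM in the Tcf21-Cre control. The groups again did not overlap, but the knockout libraries differed from each other 1.87-fold and the controls 2.88-fold, and the log2 fold change of 2.32 ± 0.64 did not pass (adjusted p = 0.160, edgeR). In bulk libraries, the number of cells making an RNA and its amount per cell cannot be told apart.

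Ccl7, the closest neighbour of Ccl2 and a second CCR2 ligand, had the largest fold change of the 9 tested chemokines in Smad2/3 DKO, 3.32-fold. It had 84.7 and 103 CPM in Smad2/3 DKO, against 32.4 and 21.8 CPM in the Postn-Cre control, with no overlap (log2 fold change 1.73 ± 0.25, adjusted p = 0.0067, edgeR). The Tgfbr1/2 DKO libraries had 149 and 263 CPM, against 49.9 and 16.5 CPM in the Tcf21-Cre control. These groups did not overlap either, and the log2 fold change of 2.76 ± 0.69 did not pass (adjusted p = 0.157, edgeR). The library with more Ccl2 in each group also had more Ccl7. Per kb of exon there was 2.62 and 3.12 times as much Ccl2 as Ccl7 in Smad2/3 DKO, against 3.6 and 4.66 times in its control. The ratio was 2.20 and 2.33 in Tgfbr1/2 DKO, against 3.07 and 3.23 in its control, so it was lower in both libraries of each knockout than in its controls.

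Ccl11, the eosinophil chemokine, had 7.21 and 16.02 CPM in Smad2/3 DKO, against 3.85 and 5.00 CPM in the Postn-Cre control. The groups did not overlap, and the log2 fold change of 1.34 ± 0.48 did not pass (adjusted p = 0.237, edgeR). With both receptors targeted (Tgfbr1/2 DKO) it had 120 and 113 CPM, against 33.3 and 5.95 CPM in the Tcf21-Cre control. The knockout libraries lay close together and well above both controls, which differed 5.59-fold, and the log2 fold change was 2.68 ± 0.96 (adjusted p = 0.288, edgeR).

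Ccl8 was near the counting floor in the Postn-driven cells. It had 14 and 8 counts in Smad2/3 DKO (0.548 and 0.372 CPM), against 0 and 3 counts in the Postn-Cre control (0 and 0.130 CPM), and was removed by the low-count filter before the test. The authors' deposited table gives a log2 fold change of 0.05 for Ccl8 there. It had 261 and 199 counts (8.01 and 6.65 CPM) in Tgfbr1/2 DKO, against 194 and 19 counts (6.65 and 0.650 CPM) in the Tcf21-Cre control. Control HK6 lay just below the lower knockout library and control HK7 far below, and the log2 fold change of 1.12 ± 0.98 did not pass (adjusted p = 0.603, edgeR).

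Control HK6 had more of all 4 CC chemokines than control HK7, and the test of Ccl2, Ccl7 and Ccl8 in Tgfbr1/2 DKO depended in part on it. With HK6 kept, more chemokines were also called there by DESeq2 and without robust estimation. Without HK6, Ccl2 (log2 fold change 3.20, adjusted p = 0.0365), Ccl7 (3.70, 0.0234), Ccl8 (3.52, 0.0079) and Ccl11 (4.32, 0.00015) all passed in edgeR, and 6 of the 10 chemokines were called. Without HK7, Ccl11 passed (1.95, adjusted p = 0.0070) and the other 3 did not. Such fits take the lone library to be as variable as the other group. The 3 calls in Smad2/3 DKO held without each of the 4 libraries, with adjusted p of 0.0044 to 0.0358 for Ccl2, 0.0011 to 0.0162 for Ccl7 and 0.0011 to 0.0242 for Cxcl16 by edgeR. In a fit of all 8 libraries, which share a single estimate of spread, Ccl2 (adjusted p = 0.171) and Ccl7 (0.0856) no longer passed in Smad2/3 DKO. Both passed in Tgfbr1/2 DKO in that fit (0.0289 and 0.0175).

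Ccl2, Ccl7, Ccl11 and Ccl8 lie in this order on chromosome 11, with Ccl12, a mouse CCR2 ligand, between the last 2, in 81.2 kb (GRCm38). Ccl2 spans chr11:82035571-82037453 and Ccl8, the far end of the cluster, chr11:82115185-82116799, both on the plus strand. Ccl12 had 0 CPM in both Smad2/3 DKO libraries and 0.385 and 0 CPM in the Postn-Cre control. It had 3.56 and 2.17 CPM in Tgfbr1/2 DKO, against 0 and 0.582 CPM in the Tcf21-Cre control. Its log2 fold change of 3.32 ± 1.14 did not pass (adjusted p = 0.177, edgeR).

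**Figure D3:**
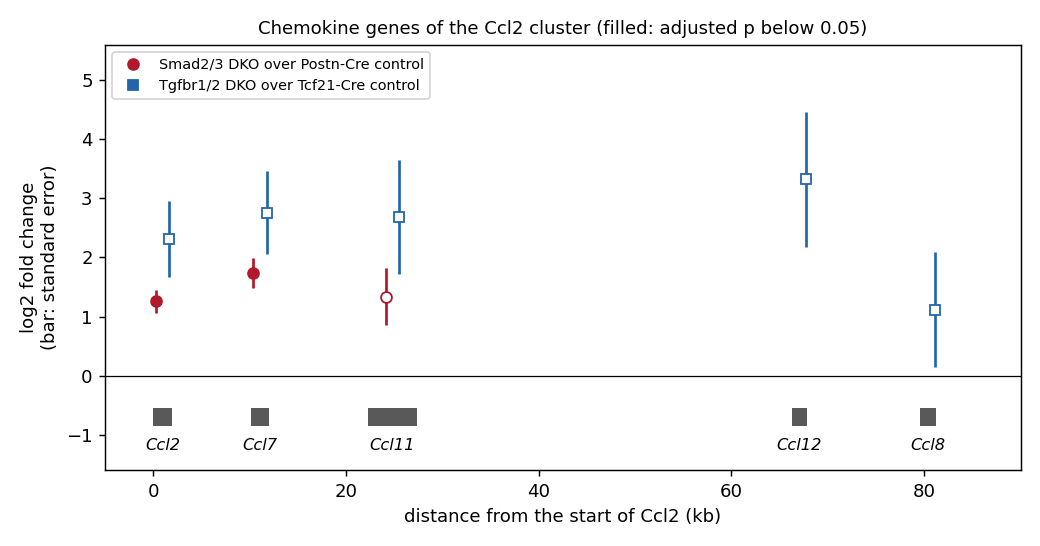
Log2 fold change (y axis, bars are SE) of the 5 chemokine genes of the Ccl2 cluster by distance from the start of Ccl2 (x axis, kb); grey boxes are the gene spans to scale. The 3 genes at the Ccl2 end were tested in both comparisons and lie above 0 in each; Ccl12 and Ccl8 were tested in Tgfbr1/2 DKO alone.

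The neutrophil chemokine Cxcl1 was abundant everywhere and no fold change passed. It had 2703 and 3958 CPM in Smad2/3 DKO, against 2011 and 1959 CPM in the Postn-Cre control. Both knockout libraries were above the controls, which lay close together (log2 fold change 0.69 ± 0.18, adjusted p = 0.0993, edgeR). Its level was 1564 and 3302 CPM in Tgfbr1/2 DKO, against 1615 and 1374 CPM in the Tcf21-Cre control. Here HK2 lay within the control range and HK4 far above it (0.81 ± 0.37, adjusted p = 0.280, edgeR). Without Smad2/3 DKO HK15 the first value passed (0.95, adjusted p = 0.0379), and without Tgfbr1/2 DKO HK2 the other did (1.31, adjusted p = 0.0471). With DESeq2 Cxcl1 also passed in Smad2/3 DKO (adjusted p = 0.0152).

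Cxcl5, which shares the receptor CXCR2, did not pass in either comparison. It had 71.6 and 147 CPM in Smad2/3 DKO, against 95.9 and 128 CPM in the Postn-Cre control, which lay between them. The log2 fold change was -0.08 ± 0.29 (adjusted p = 0.946, edgeR), and it turned to 0.12 without control HK4 and to 0.35 without Smad2/3 DKO HK15. Its level was 16.3 and 42.7 CPM in Tgfbr1/2 DKO, against 17.8 and 8.01 CPM in the Tcf21-Cre control. Again HK2 fell within the control range, and the log2 fold change of 1.32 ± 0.64 did not pass (adjusted p = 0.348, edgeR) except without HK2 (1.90, adjusted p = 0.0454).

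Cxcl12, the CXCR4 ligand, rose in Tgfbr1/2 DKO and had lower values, short of the threshold, in Smad2/3 DKO. It had 257 and 238 CPM in Tgfbr1/2 DKO, against 98.9 and 69.1 CPM in the Tcf21-Cre control, 3.14-fold higher with no overlap (log2 fold change 1.65 ± 0.20, adjusted p = 0.0028, edgeR). In Smad2/3 DKO it had 17.7 and 21.9 CPM, against 46.7 and 32.2 CPM in the Postn-Cre control. Both knockout libraries lay below both controls, and the log2 fold change of -1.05 ± 0.29 did not pass (adjusted p = 0.114, edgeR). It passed with DESeq2 (adjusted p = 0.0121), with no low-count filter (0.0134) and without Postn-Cre control HK4 (0.0421).

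The difference itself was tested as the Smad2/3 DKO effect minus the Tgfbr1/2 DKO effect in a fit of all 8 libraries. For Cxcl12 it was -2.71 ± 0.33 on the log2 scale (adjusted p = 0.0031, edgeR). Cxcl12 was the only 1 of the 10 chemokines past this test, in which 1.83% of 17770 genes were called, 0.664% as higher and 1.17% as lower. Without each of the 8 libraries in turn its difference ran from -2.98 to -2.39 and its adjusted p from 0.0021 to 0.0197. With scaling to library totals 49.7% of all calls were higher, against 36.2%, and the median over all genes moved by 0.15. Because run and driver differ between the comparisons, the deleted genes, the driver and the run cannot be told apart in this difference. In the same edgeR test 3 of 15 endothelial markers were called lower, and 11 were at an unadjusted p below 0.05. Their median difference was -1.85, with 2 of the 15 above 0. None of 16 macrophage and monocyte markers was called, with 11 at an unadjusted p below 0.05 and a median of -3.12. The median over all tested genes was 0.01. The part of these cells' RNA in the Cxcl12 difference was not tested.

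The other 9 differences did not pass (adjusted p 0.241 to 0.928, edgeR). They were -1.07 ± 0.59 for Ccl2, -1.04 ± 0.61 for Ccl7, -1.36 ± 0.83 for Ccl11 and -1.42 ± 0.68 for Cxcl5. They were -0.82 ± 0.34 for Cxcl14, 0.50 ± 0.23 for Cxcl16 and 0.39 ± 0.36 for Cx3cl1. The value of -0.13 ± 0.47 for Cxcl1 turned positive with scaling to library totals (0.04), and that of 1.63 ± 1.58 for Ccl8 turned to -0.79 without Tcf21-Cre control HK6. Without HK6 the Ccl11 difference passed (-3.02, adjusted p = 0.0269).

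Cxcl14 had the smallest p of the 10 in Tgfbr1/2 DKO, and its replicates differed by at most 1.09-fold in every group. It had 52.4 and 56.3 CPM in Tgfbr1/2 DKO, against 15.5 and 14.2 CPM in the Tcf21-Cre control, 3.88-fold higher (log2 fold change 1.96 ± 0.20, adjusted p = 0.00098, edgeR). In Smad2/3 DKO it had 10.1 and 10.0 CPM, against 4.23 and 4.48 CPM in the Postn-Cre control. The groups did not overlap, and the log2 fold change of 1.15 ± 0.42 did not pass (adjusted p = 0.249, edgeR). These were 258 and 215 counts, against 110 and 103 counts, and close agreement of 2 libraries is a weak measure of spread. The Tgfbr1/2 DKO calls of Cxcl12 and Cxcl14 held without each library, with adjusted p of 0.0015 to 0.0246 for Cxcl12 and 0.00023 to 0.0108 for Cxcl14.

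Cxcl16, the membrane-bound CXCR6 ligand, rose in Smad2/3 DKO. It had 256 and 299 CPM in Smad2/3 DKO, against 108 and 127 CPM in the Postn-Cre control, 2.28-fold higher with no overlap (log2 fold change 1.19 ± 0.17, adjusted p = 0.0058, edgeR). Its level was 122 and 112 CPM in Tgfbr1/2 DKO, against 79.4 and 74.9 CPM in the Tcf21-Cre control. The groups did not overlap, and the log2 fold change of 0.68 ± 0.17 lay just outside the threshold (adjusted p = 0.0583, edgeR). It passed with DESeq2 (0.0309) and with no low-count filter (0.0321).

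Cx3cl1, the CX3CR1 ligand, had 33.7 and 30.8 CPM in Smad2/3 DKO, against 14.2 and 18.9 CPM in the Postn-Cre control. It had 67.1 and 79.1 CPM in Tgfbr1/2 DKO, against 44.7 and 63.8 CPM in the Tcf21-Cre control. Neither pair of groups overlapped, and neither log2 fold change passed (0.90 ± 0.28, adjusted p = 0.160, and 0.51 ± 0.24, adjusted p = 0.271, edgeR). With DESeq2 the first passed (adjusted p = 0.0443).

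The 2 control groups differed in most of these genes. Of the 10 chemokines, Cxcl5 and Cxcl16 were higher and Ccl8, Ccl11, Cxcl12, Cxcl14 and Cx3cl1 lower in the Postn-Cre control than in the Tcf21-Cre control, where 34.9% of 17770 genes were called, 15.9% as higher and 18.9% as lower. Ranges did not overlap for 3 chemokines that were higher and 5 that were lower, against 23.1% and 46.7% of all genes. Cxcl5 had 95.9 and 128 CPM in the Postn-Cre control and 17.8 and 8.01 CPM in the Tcf21-Cre control (log2 fold change 3.42 ± 0.52, adjusted p = 0.00069, edgeR). Cxcl14 was the gene most clearly on the other side (-1.48 ± 0.24, adjusted p = 0.0010). The calls of Ccl8, Ccl11 and Cxcl12 depended on control HK6, without which their adjusted p were 0.0709, 0.813 and 0.152. Cxcl12 also failed without Postn-Cre control HK4 (0.143), and Ccl11 without either Postn-Cre control (0.209 without HK3 and 0.155 without HK4) or any knockout library (0.0559 to 0.0775), and with DESeq2 (0.0979). With scaling to library totals the median of all genes moved by -0.29 and 29.6% of calls were higher, against 45.8%, and Ccl7 went to -0.29, against 0.03. Driver and sequencing run cannot be told apart here.

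The other 31 chemokine genes of the mouse were less often measurable. In Smad2/3 DKO 13 were tested, of which Cxcl2 rose and none fell by edgeR, while DESeq2 called 1 lower. Cxcl2, the near neighbour of Cxcl1 and also a CXCR2 ligand, had 227 and 318 CPM in Smad2/3 DKO, against 114 and 148 CPM in the Postn-Cre control (log2 fold change 1.00 ± 0.20, adjusted p = 0.0383, edgeR). The call was lost without Smad2/3 DKO HK16 (adjusted p = 0.188), without Postn-Cre control HK3 (0.0877) and in the fit of all 8 libraries (0.331).

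Of the 19 tested in Tgfbr1/2 DKO, Ccl3, Ccl6, Ccl9 and Pf4 rose and none fell. Ccl9 had 18.2 and 15.6 CPM in Tgfbr1/2 DKO, against 4.90 and 4.72 CPM in the Tcf21-Cre control (log2 fold change 1.89 ± 0.27, adjusted p = 0.0062, edgeR). Ccl3 had 7.52 and 6.28 CPM in Tgfbr1/2 DKO, against 0.788 and 1.30 CPM (2.79 ± 0.43, adjusted p = 0.0087). Macrophages are a known source of all 4 in mice, and platelets of Pf4. Pf4 (1.72 ± 0.33, adjusted p = 0.0219) was lost without Tgfbr1/2 DKO HK4 (0.123) and without either control (0.0552 without HK6 and 0.0693 without HK7). Ccl6 (3.35 ± 0.67, adjusted p = 0.0245) was lost without Tgfbr1/2 DKO HK2 (0.107) and without control HK7 (0.0896). In the fit of all 8 libraries all 4 calls were lost (0.0792 to 0.317), while DESeq2 called 7 of the 19 higher. The difference between the 2 knockout effects was called for none of the 20 tested by edgeR (8 at an unadjusted p below 0.05) and for 5 by DESeq2, all with the lower effect in Smad2/3 DKO.

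Most chemokine receptors were scarce. Of 19 listed, 9 were tested in Smad2/3 DKO and 11 in Tgfbr1/2 DKO and none was called by edgeR, with 0 and 2 at an unadjusted p below 0.05, nor by DESeq2. Cxcr2, the receptor of CXCL1 and CXCL5, was at 9.02 to 20.8 CPM over the 8 libraries, Cxcr4 at 0.512 to 5.14 CPM and Ccr2 at 0 to 0.547 CPM. Ccrl2, also among the 19, was at 12.7 to 31.1 CPM. The 4 atypical receptors, which bind chemokines without classical signalling, were uneven. Ackr1 was at 0.140 to 3.56 CPM and Ackr4 at 10.5 to 59.6 CPM, and Ackr3 was the most abundant. Ackr3, which takes up CXCL12, had 580 and 637 CPM in Tgfbr1/2 DKO, against 550 and 455 CPM in the Tcf21-Cre control. It had 367 and 317 CPM in Smad2/3 DKO, against 372 and 323 CPM in the Postn-Cre control. Neither change passed by edgeR (adjusted p = 0.367 and 0.885) or by DESeq2.

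Ackr2, which scavenges inflammatory CC chemokines including CCL2, had 19.5 and 18.8 CPM in Smad2/3 DKO, against 40.8 and 26.5 CPM in the Postn-Cre control. It had 43.4 and 32.4 CPM in Tgfbr1/2 DKO, against 25.2 and 19.6 CPM in the Tcf21-Cre control. Neither change passed by edgeR (adjusted p = 0.202 and 0.0584), and the one in Tgfbr1/2 DKO passed with DESeq2 (0.0245) and with no low-count filter (0.0174). The difference between them passed (-1.72 ± 0.37, adjusted p = 0.0438, edgeR). It was lost with scaling to library totals (0.0656) and without any library other than Postn-Cre control HK4 (adjusted p 0.0670 to 0.131).

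Of the 6 proteases known to cut chemokines, 6 were tested in Smad2/3 DKO and 5 in Tgfbr1/2 DKO. None was called by edgeR, with 4 and 1 at an unadjusted p below 0.05. DESeq2 called 1 lower in Smad2/3 DKO and 1 higher, Mmp14, in Tgfbr1/2 DKO. Adam10 and Adam17, which shed CX3CL1 and CXCL16 from the membrane, were at 31.9 to 54.4 and 112 to 167 CPM. Mmp14, a membrane protease that can cut CXCL12, had 94.2 and 74.3 CPM in Smad2/3 DKO, against 116 and 122 CPM in the Postn-Cre control. It had 386 and 349 CPM in Tgfbr1/2 DKO, against 210 and 256 CPM in the Tcf21-Cre control, which passed with DESeq2 (adjusted p = 0.0255) and not by edgeR (0.0798). The difference was -1.30 ± 0.27 (adjusted p = 0.0366, edgeR) and passed in 1 of the 8 fits without a library, that without Tcf21-Cre control HK7 (0.0389). In the other 7 the adjusted p was 0.0630 to 0.130.

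Of 17 genes of the NF-κB and C/EBP regulators, which are known to control chemokine transcription, Nfkbia and Tnfaip3 rose in Smad2/3 DKO and none fell. Nfkbia encodes the inhibitor IκBα and had 183 and 167 CPM in Smad2/3 DKO, against 75.2 and 53.9 CPM in the Postn-Cre control (log2 fold change 1.38 ± 0.20, adjusted p = 0.0072, edgeR). Tnfaip3 encodes the inhibitor A20 and had 169 and 179 CPM in Smad2/3 DKO, against 89.7 and 77.3 CPM (1.00 ± 0.17, adjusted p = 0.0188). The Tnfaip3 call was lost without Smad2/3 DKO HK15 (0.0701), without HK16 (0.0638) and in the fit of all 8 libraries (0.0970). Both are feedback inhibitors that NF-κB itself is known to induce. None of the 17 was called in Tgfbr1/2 DKO by edgeR (2 at an unadjusted p below 0.05, 1 call by DESeq2), and Nfkbia had 99.1 and 110 CPM, against 76.4 and 122 CPM in the Tcf21-Cre control. The difference between the effects on Nfkbia did not pass by edgeR (1.22 ± 0.37, adjusted p = 0.122). It passed with DESeq2 (0.0398), with no low-count filter (0.0048) and without Tcf21-Cre control HK6 (0.0442).

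Of 19 receptors and adaptors of inflammatory cytokines, Il1r1, the interleukin-1 receptor, fell in Smad2/3 DKO and none rose by edgeR, while DESeq2 called 2 higher. Il1r1 had 513 and 592 CPM in Smad2/3 DKO, against 1059 and 1163 CPM in the Postn-Cre control (log2 fold change -1.06 ± 0.15, adjusted p = 0.0053, edgeR), and was lost without HK15 (0.0649) and in the fit of all 8 libraries (0.0959). Its level was 417 and 557 CPM in Tgfbr1/2 DKO, against 403 and 205 CPM in the Tcf21-Cre control (0.79 ± 0.32, adjusted p = 0.225). The difference passed (-1.86 ± 0.39, adjusted p = 0.0405). It was lost with scaling to library totals (0.0529) and without either Smad2/3 DKO library, either Postn-Cre control, Tcf21-Cre control HK7 or Tgfbr1/2 DKO HK4 (0.0713 to 0.132). Il17rc, Il13ra1 and Myd88 rose in Tgfbr1/2 DKO and none of the 19 fell. Their log2 fold changes were 1.45 ± 0.30 (adjusted p = 0.0270), 0.95 ± 0.20 (0.0278) and 0.87 ± 0.21 (0.0486). Il17rc was lost without HK7, HK2 or HK4 (0.0561 to 0.112), Il13ra1 without HK6 or HK4 (0.103 and 0.145) and Myd88 without any of the 4 (0.0566 to 0.3). All 3 calls were lost in the fit of all 8 libraries (0.0984 to 0.165). With scaling to library totals Il17rc (0.0508) and Myd88 (0.0672) were lost, and Myd88 also without robust estimation (0.0710) and with DESeq2-type size factors (0.0524).

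Of 16 other cytokines, 9 were tested in Smad2/3 DKO with no call by edgeR (2 at an unadjusted p below 0.05, 1 call by DESeq2). Of the 13 tested in Tgfbr1/2 DKO, Mif (macrophage migration inhibitory factor), a cytokine with chemokine-like action, rose. It had 49.8 and 40.2 CPM in Tgfbr1/2 DKO, against 20.1 and 20.8 CPM in the Tcf21-Cre control (log2 fold change 1.21 ± 0.20, adjusted p = 0.0119, edgeR). DESeq2 called 3 of the 13 higher.

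Markers of several other cell types differed between the groups. The 16 macrophage and monocyte markers summed to 252 to 262 CPM in Tgfbr1/2 DKO, against 63.7 CPM in Tcf21-Cre control HK6 and 101 CPM in HK7. All 16 had a log2 fold change above 0, and 6 rose and none fell in edgeR's test. That count was 11 with DESeq2, 1 in the fit of all 8 libraries, 11 without control HK7, 4 without control HK6, 3 without Tgfbr1/2 DKO HK2 and 0 without HK4. HK6 had the lower marker sum of the 2 controls and the higher Ccl2, Ccl7, Ccl8 and Ccl11. In Smad2/3 DKO the sum was 33.5 to 34.4 CPM, against 37.1 to 42.4 CPM in the Postn-Cre control, and none of the 8 tested was called by edgeR or DESeq2 (1 at an unadjusted p below 0.05). There 3 of the 16 were at 0 in both knockout libraries (Ptprc, Adgre1 and C1qa) and 1 in both controls (C1qa). Cd68 had 14.5 and 12.5 CPM in Smad2/3 DKO, against 9.46 and 22.1 CPM in the Postn-Cre control, and Itgam, which neutrophils also express, had 9.01 and 12.4 CPM, against 3.85 and 4.35 CPM. The part of macrophage RNA in the chemokine changes of Tgfbr1/2 DKO was not tested.

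The 15 endothelial markers summed to 810 to 863 CPM in Tgfbr1/2 DKO, against 552 to 603 CPM in the Tcf21-Cre control, with 4 called higher by edgeR (5 by DESeq2, 1 or 2 without each library). They summed to 221 to 337 CPM in Smad2/3 DKO, against 336 to 697 CPM in the Postn-Cre control, with none called by edgeR (7 at an unadjusted p below 0.05), 2 called lower by DESeq2, and 5 called lower without Postn-Cre control HK4. Endothelial cells are a known source of Cxcl12 and Cx3cl1, and the part of their RNA was not tested. Of 14 genes that tissue dissociation switches on, 13 had a log2 fold change above 0 in Smad2/3 DKO (9 at an unadjusted p below 0.05, edgeR). For 11 of the 14 both knockout libraries were above both controls, as for 25.4% of all tested genes. The 14 genes summed to 5059 to 5781 CPM in Smad2/3 DKO, against 2818 to 3919 CPM in the Postn-Cre control. The number called higher was 1 by edgeR and 5 by DESeq2. It was 5 without Postn-Cre control HK3, 2 without Smad2/3 DKO HK16, and 0 without Postn-Cre control HK4 or Smad2/3 DKO HK15. They summed to 14690 to 18230 CPM in Tgfbr1/2 DKO, against 12810 to 19630 CPM in the Tcf21-Cre control, with 2 of 14 called lower (1 without Tgfbr1/2 DKO HK2). Dissociation is also known to induce Cxcl1, Cxcl2 and Ccl2, and its part was not tested. Of 12 fibroblast markers, 3 fell in Smad2/3 DKO (5 by DESeq2), the collagens Col1a1, Col1a2 and Col3a1, and none was called in Tgfbr1/2 DKO by edgeR or DESeq2 (0 at an unadjusted p below 0.05).

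The 10 pericyte and smooth muscle markers summed to 1184 to 1239 CPM in Tgfbr1/2 DKO, against 797 to 1218 CPM in the Tcf21-Cre control, and to 847 to 1126 CPM in Smad2/3 DKO, against 916 to 1639 CPM in the Postn-Cre control. Acta2, the actin of smooth muscle and of myofibroblasts, rose in Tgfbr1/2 DKO (log2 fold change 1.09 ± 0.19, adjusted p = 0.0140, edgeR). The call was lost in the fit of all 8 libraries (0.112), without control HK7 (0.0566) and without Tgfbr1/2 DKO HK4 (0.0827), while 5 of the 10 were called higher without control HK6. Kcnj8, a potassium channel subunit of pericytes, fell in Smad2/3 DKO (-3.17 ± 0.54, adjusted p = 0.0177, edgeR), and was lost without Postn-Cre control HK3 (0.0644). The 8 mesothelial markers summed to 3.11 to 8.35 CPM in Tgfbr1/2 DKO, against 2.12 to 2.50 CPM, and to 0.466 to 4.23 CPM in Smad2/3 DKO, against 1.48 to 7.81 CPM. Lrrn4, 1 of the 4 tested in Tgfbr1/2 DKO, rose there (adjusted p = 0.0170, edgeR) with 1.78 and 0.802 CPM, against 0 in both controls, and was lost in the fit of all 8 libraries (0.141), without HK2 (0.0840) and without HK7 (0.0577). None of the 2 tested in Smad2/3 DKO was called by edgeR or DESeq2 (1 at an unadjusted p below 0.05). The part of these cells' RNA was not tested.

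The 10 cardiomyocyte markers summed to 709 to 762 CPM in Smad2/3 DKO, against 665 to 719 CPM, and to 578 to 667 CPM in Tgfbr1/2 DKO, against 566 to 573 CPM. Most of each sum was Atp2a2 (325 to 634 CPM over the 8 libraries), and the single genes moved otherwise in Smad2/3 DKO. There 7 of the 10 had both libraries below both controls and 2 had both above, against 18.9% and 25.4% of all tested genes. The median log2 fold change of the 10 was -1.16 there and -0.09 in Tgfbr1/2 DKO. None of the 10 was called by edgeR (5 and 2 at an unadjusted p below 0.05). DESeq2 called 1 lower in Smad2/3 DKO and 1 higher in Tgfbr1/2 DKO. Neutrophil markers summed to 3.34 to 6.42 CPM over all 8 libraries, nearly all of it Csf3r (2.81 to 6.29 CPM), the only 1 of the 6 abundant enough to test in each comparison. Lymphocyte markers summed to 4.42 to 8.70 CPM, and 4 of the 8 were tested in each comparison. None of those tested was called by edgeR or DESeq2 (0 and 0 neutrophil and 1 and 0 lymphocyte genes at an unadjusted p below 0.05).

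**Figure D4:**
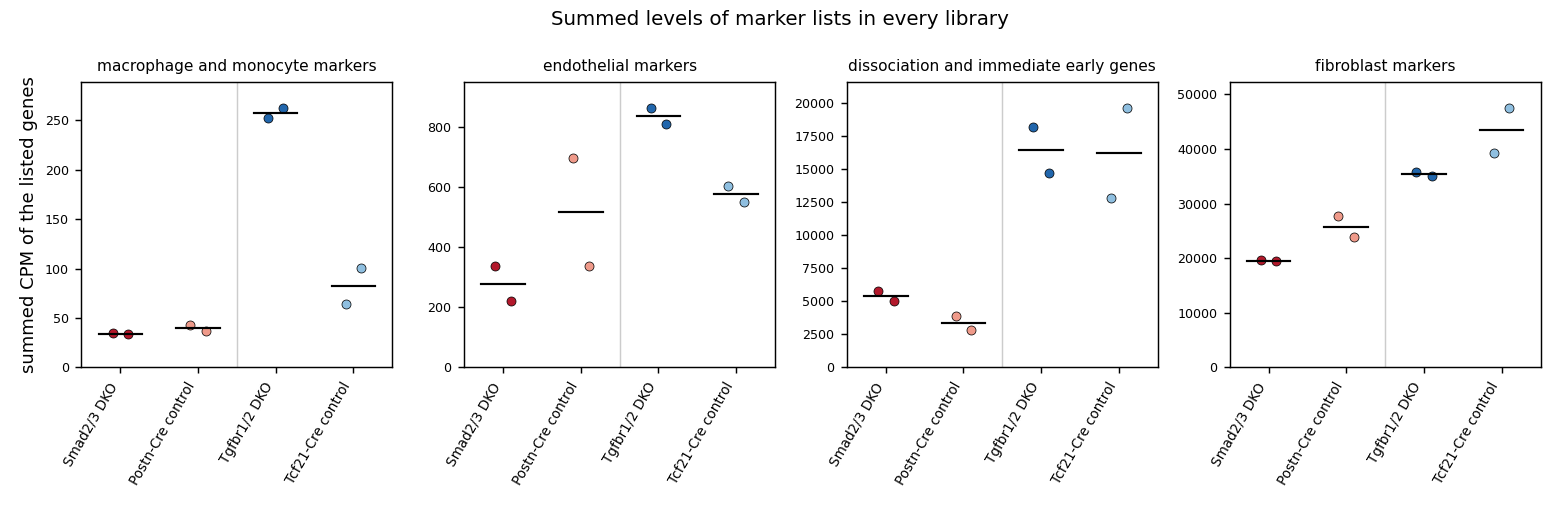
Summed CPM (y axis, starting at 0) of the macrophage and monocyte, endothelial, dissociation and fibroblast marker lists in every library of the 4 groups (x axis); points are libraries and lines are means of 2. The macrophage sum is 252 to 262 CPM in Tgfbr1/2 DKO, against 63.7 and 101 CPM in its controls, while the dissociation sum overlaps between these 2 groups.

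Some genes followed the most abundant chemokines across the 8 libraries. Likeness was measured as the root mean square (RMS) difference between 2 genes' log2(CPM + 1) values, each centred on its own mean, among 8246 genes averaging at least 10 CPM. The libraries share runs and groups, so this is a description. Ccl7 was nearest to Ccl2 (0.31, where Ccl2 itself varied by an RMS of 1.05), followed by Ch25h (0.47). Uap1 (0.22) and Hspa5 (0.25) were nearest to Cxcl1, which varied by 0.51. Peg10 (0.18) and March3 (0.25) were nearest to Cxcl16, which varied by 0.67, and S100a4 (0.25) and Limk1 (0.29) to Cxcl12, which varied by 1.35.

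Promoter sequences (250 bases before to 50 after the start, RefSeq, GRCm38.p6) were matched for Ccl8, Cxcl1, Cxcl12, Cxcl14 and Cx3cl1. Of these, Cxcl1 is shown because it was the most abundant chemokine and an NF-κB-type motif lies close to its start. Both strands were searched for the NF-κB consensus, which 11.2% of 32851 promoters of the same length hold. The capitals mark its overlapping matches, 71 to 61 bases before the start.
Cxcl1 upstream, chr5:90891155-90891244 (+): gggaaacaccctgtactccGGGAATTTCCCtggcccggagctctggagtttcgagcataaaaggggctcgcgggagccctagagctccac
Cxcl14 had a match 34 to 43 bases after its start. The full consensus had no match in the windows of Ccl8, Cxcl12 and Cx3cl1. The Smad motif CAGACA (21% of promoters), the AP-1 motif TGANTCA (7.81%) and the C/EBP motif TTGCNNAA (10.8%) matched in none of the 5 windows.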

How the data were processed

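Per the labels' protocols, RNA from sorted cells was amplified (NuGEN Ovation RNA-Seq), made into Nextera XT libraries and sequenced on a HiSeq2500. No strand-marking step is described. The authors' deposited tables hold expected counts for 38087 Ensembl entries, with mm10 as build per the submitters' processing notes. Aligner and counter: not given in the sources used here. Further tables deposited by the authors give log2 fold changes without a test. Their tables hold 16 normalized per-library columns, which were not used.

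Expected counts were rounded and summed by symbol. CPM is the count over the library total, times 1000000. Tests used edgeR 4.0.16 in R 4.3.3 (TMM, filterByExpr, robust quasi-likelihood F test, two-sided, Benjamini-Hochberg over all tested genes, threshold 0.05), checked on simulated counts, with SE from the F statistic. Each comparison used its own 4 libraries, and differences a fit of all 8. DESeq2 1.42.0 was an alternative, with other scalings, no filter, no robust step and each library left out. Intervals between replicates rest on n = 2. Counting floors (3 counts) cover counting error only. Positions are from GENCODE vM21, which held 95.3% of the identifiers. A symbol turned into a date in the files was read by its Ensembl ID (March3). The members and lists were chosen with earlier results of these data known. All 10 members are named; of other lists, called genes (at most 4 per list and comparison, smallest p first) and 2 nearest genes for the 4 most abundant members. Genes named for their level alone were chosen after their values were seen.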

Additional observations from a re-analysis of the deposited data

Results flagged for a closer look

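Among the 10 chemokines and the lists of related genes, cell type markers left out, 4 genes differed between the 2 knockout effects. These are the effects of Smad2/3 DKO over the Postn-Cre control and of Tgfbr1/2 DKO over the Tcf21-Cre control. The test of the difference was edgeR's quasi-likelihood test, which called 1.83% of 17770 genes. The difference was -2.71 (log2) for Cxcl12, -1.72 for Ackr2, -1.30 for Mmp14 and -1.86 for Il1r1, with adjusted p of 0.0031, 0.0438, 0.0366 and 0.0405. Cxcl12 held without each library, and the other 3 did not. With scaling to library totals Ackr2 (0.0656) and Il1r1 (0.0529) were also lost. Each of the 4 genes had both Smad2/3 DKO libraries below both of their controls and both Tgfbr1/2 DKO libraries above both of theirs. The genes were picked by this difference in the same libraries, so the pattern is a description and not a further test. For Il1r1 the separation was narrow, with 417 CPM in Tgfbr1/2 DKO HK2 and 403 CPM in Tcf21-Cre control HK6. Deleted genes, driver and run cannot be told apart in these differences. Of the cell type markers, the same test called 3 of 15 endothelial, 1 of 10 pericyte and smooth muscle and 1 of 12 fibroblast markers lower. The part of cell make-up in these differences was not tested.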

How the results depend on the processing

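No paired analysis was possible because the groups compared share no replicate numbers in the labels. Genes called in Smad2/3 DKO numbered 204 by edgeR, 769 by DESeq2, 819 with no low-count filter and 105 to 297 without each library; chemokines called numbered 3, 6, 5 and 3 to 4, and 1 in the fit of all 8 libraries. In Tgfbr1/2 DKO 659 genes were called, 1134 by DESeq2, 1233 with no filter, 299 in the fit of all 8 libraries and 271 to 484 without each library. Chemokines called there numbered 2, and 4 by DESeq2, without robust estimation and in the fit of all 8, and 2 to 6 without each library. For the difference 326 genes were called, 1146 by DESeq2, 1194 with no filter and 89 to 302 without each library; chemokines numbered 1, 5 with no filter and 1 to 2 without each library. Between the controls 6193 genes were called, and 3645 to 6500 without each library, with 5 to 7 chemokines. The cause of these moves was not tested, other than that fits without a library have fewer samples. No called chemokine changed sign. Uncalled values that did were Cxcl5 in Smad2/3 DKO (-0.71 to 0.35 without each library), Ackr3 there (-0.19 to 0.041) and Nfkbia in Tgfbr1/2 DKO (-0.18 to 0.60), and the differences of Cxcl1 (0.044 with library totals, -0.65 to 0.59 without each library) and Ccl8 (-0.79 to 5.66). Between the controls they were Ccl2 (-0.16 to 1.30 without each library) and Ccl7 (-0.29 with library totals, -0.00051 with no filter, -0.55 to 0.98 without each library). With 2 libraries a group, a missed threshold does not show that values were alike, and Ccl8 was too scarce to test in Smad2/3 DKO.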
